A study of Mus musculus with 8 samples.

Results

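The 35 Hox cluster genes that the 2 arrays measured with a probe set of their own are described here, out of 18336 genes named by a single-gene probe set. Members were taken by symbol alone, as Hoxa, Hoxb, Hoxc or Hoxd followed only by a number from 1 to 13. No measured value enters that rule, but the family was chosen with earlier results of these data known. They had 86 of 57459 probe sets (a probe set is a group of short probes against 1 transcript), 38 on the U74Av2 array for 31 genes and 48 on the MOE430v2 array for 33 genes. By cluster they were 10 Hoxa genes on chromosome 6 (30 probe sets), 10 Hoxb genes on chromosome 11 (21), 7 Hoxc genes on chromosome 15 (16) and 8 Hoxd genes on chromosome 2 (19), with chromosomes from assembly GRCm38.p6. Hox genes without a single-gene probe set in the annotation used are not analysed here.

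The study compared Foxa2 null with wild-type mouse embryos at embryonic day 7.5, late in gastrulation, to find genes that depend on the gastrula organizer. Foxa2 encodes a forkhead transcription factor without which the node, the notochord and the definitive endoderm do not form. Foxa2 null pools 1 and 2 held 53 and 48 embryos, and wild-type pools 1 and 2 held 53 and 50 embryos, with the sexes mixed and the extra-embryonic region removed. Each of the 4 RNA pools was put on 1 array of each type, so the second array type adds no pool and n stays at 2 pools per genotype. Foxa2 null embryos were grown from Foxa2 null embryonic stem cells by tetraploid complementation, in which a wild-type tetraploid host forms the extra-embryonic tissues, including the visceral endoderm that stayed on the collected embryos. Wild-type embryos were ICR. The mutant labels of 1 array type also name ICR, so the strain of the stem cells is uncertain. Genotype and embryo origin cannot be told apart. By the study's staging, the embryos ran from mid-streak to head-fold, and wild-type pool 2 was the youngest. The part of stage in the Hox ratios was not tested.

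Hox proteins are homeodomain transcription factors that give cells their position along the head-to-tail axis. Their genes lie in 4 clusters that arose by duplication, and members with the same number (paralogues) are the most alike. The genes are switched on in the order in which they lie. Low numbers, which pattern the hindbrain, start first, in the posterior primitive streak during gastrulation, and high numbers, which pattern the trunk, tail and limbs, follow days later. Wnt and Fgf signals of the streak, retinoic acid and the Cdx proteins promote this activation, and Polycomb proteins hold back genes that are not yet on.

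Foxa2 itself was checked first. Its U74Av2 signal was 84.0 and 93.8 in the Foxa2 null pools, against 165 and 271 in wild-type. Its MOE430v2 signal was 499.5 and 534 in the Foxa2 null pools, against 784 and 1150.3 in the wild-type pools. Both Foxa2 null pools were below both wild-type pools on each array. By limma, the log2 ratio (Foxa2 null minus wild-type) on U74Av2 was -1.25 with a standard error (SE) of 0.26 and an adjusted p of 0.130. On MOE430v2 it was -0.88 (SE 0.21), at an adjusted p of 0.141. It is not known whether these probe sets lie in the deleted part of the gene, and the host's visceral endoderm carries wild-type Foxa2. Of 10 epiblast markers fixed for the labelled tissue, those measured lay in wild-type between the 52.3rd and 99.3rd signal percentile on MOE430v2. On U74Av2 the 8 measured lay between percentiles 23.4 and 97.75. The median log2 ratio of the epiblast markers was 0.10 on MOE430v2 (3 of 10 below 0) and 0.24 on U74Av2 (3 of 8 below 0). None of them passed an adjusted p under 0.05 by limma. Of 10 markers of visceral endoderm on MOE430v2, 10 had a log2 ratio above 0, with a median of 0.40.

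Wild-type Hox signals were mostly in the lower part of the signal range. The median Hox probe set lay at percentile 31.2 of all probe sets on U74Av2 and at percentile 37.1 on MOE430v2, and 32 of 38 and 28 of 48 were below the 50th percentile. Probe sets bind with different strength, so a percentile says where a signal lies and does not order the amounts of RNA. Genes of late or adult tissues and olfactory receptors, which gastrula embryos should not use, served as a measured floor: 90% of their 92 U74Av2 and 127 MOE430v2 probe sets lay below percentile 52.8 on either array. Above that line were 5 Hox probe sets on U74Av2, of Hoxa4, Hoxb1, Hoxb5, Hoxb6 and Hoxb8. Above it on MOE430v2 were 17 probe sets of 13 genes, namely Hoxa2, Hoxa3, Hoxa5, Hoxa9, Hoxb1, Hoxb2, Hoxb3, Hoxb4, Hoxb6, Hoxb9, Hoxc6, Hoxd1 and Hoxd9. The remaining Hox probe sets lay within the range of 90% of the late-tissue probe sets.

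By paralogue number, the median wild-type percentile on MOE430v2 was 57.9 for the 16 probe sets of numbers 1 to 4, 36.0 for the 20 of numbers 5 to 9 and 22.0 for the 12 of numbers 10 to 13. On U74Av2 it was 34.1 (12 probe sets), 34.0 (18) and 11.9 (8). The low numbers thus had the highest median on MOE430v2, whereas on U74Av2 numbers 1 to 4 and 5 to 9 had almost the same median. On both arrays the high numbers had the lowest. By cluster, Hoxb had the highest median on each array, at percentile 40.6 on U74Av2 and 57.3 on MOE430v2. The median for Hoxa was 29.8 and 41.8, for Hoxc 33.3 and 32.1 and for Hoxd 29.8 and 33.5, with the U74Av2 value first.

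**Figure D1:**
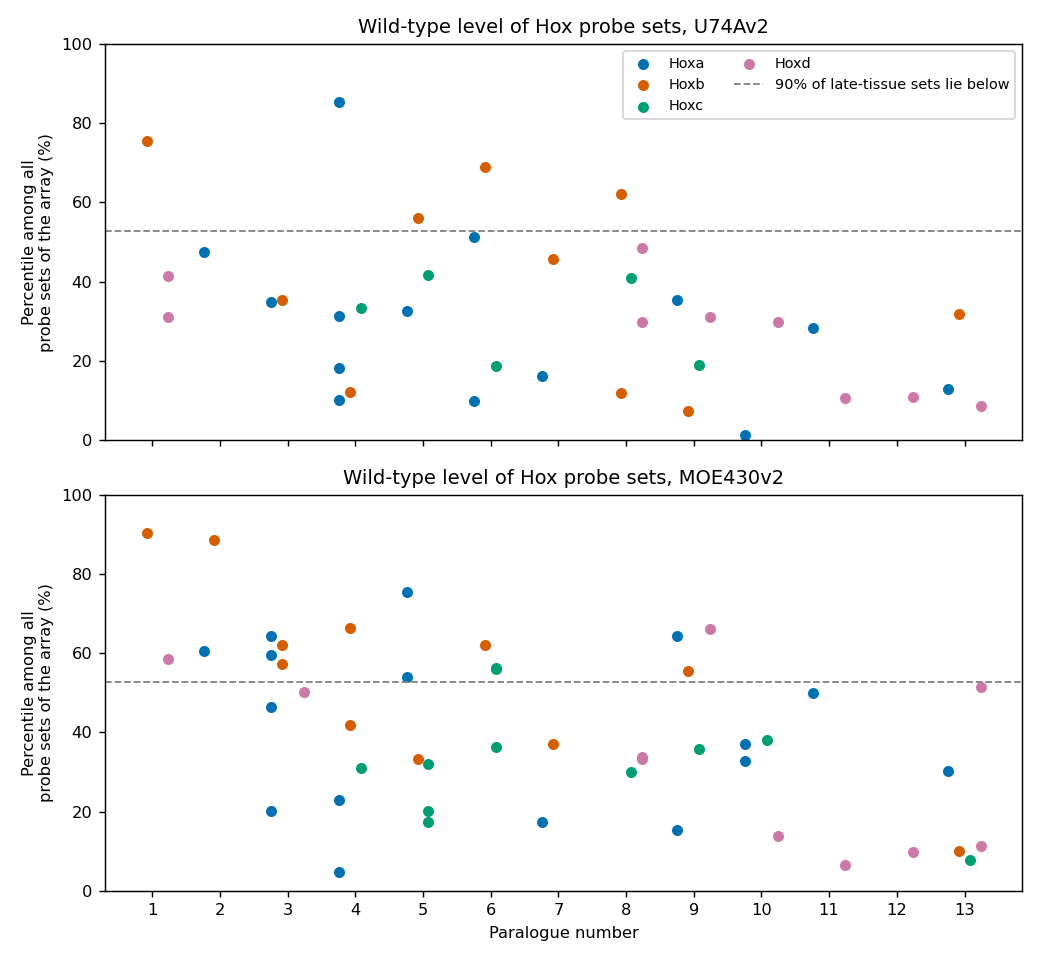
Wild-type signal percentile (vertical axis, % of all probe sets of the array, mean of 2 pools) of each Hox probe set against paralogue number, coloured by cluster, on U74Av2 (top) and MOE430v2 (bottom). The dashed line at 52.8 is the level below which 90% of probe sets of late-tissue genes and olfactory receptors lie, and 5 Hox probe sets on U74Av2 and 17 on MOE430v2 are above it.

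The promoters of the Hoxb cluster are shown because Hoxb had the highest median percentile in wild-type on both arrays and the lowest median ratio on MOE430v2. RefSeq windows of 250 bases before and 50 bases after the start (build GRCm38.p6) were found for 21 of the 35 genes (23 windows), and 3 of them were Hoxb genes. All 3 lie on the plus strand of chromosome 11, Hoxb1 at chr11:96365508-96365807, Hoxb4 at chr11:96318017-96318316 and Hoxb8 at chr11:96281655-96281954. Capitals mark matches, on either strand, to TGATNNAT (bound by Pbx and Hox proteins together), AGGTCA (the core site of nuclear receptors such as those for retinoic acid), TTTATG (Cdx) or TGTTTAC (forkhead).
Hoxb1: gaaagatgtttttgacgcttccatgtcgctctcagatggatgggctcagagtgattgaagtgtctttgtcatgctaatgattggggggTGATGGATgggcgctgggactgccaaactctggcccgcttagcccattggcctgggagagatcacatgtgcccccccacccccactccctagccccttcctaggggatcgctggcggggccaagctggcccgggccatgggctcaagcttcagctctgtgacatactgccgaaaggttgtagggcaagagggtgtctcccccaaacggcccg
Hoxb4: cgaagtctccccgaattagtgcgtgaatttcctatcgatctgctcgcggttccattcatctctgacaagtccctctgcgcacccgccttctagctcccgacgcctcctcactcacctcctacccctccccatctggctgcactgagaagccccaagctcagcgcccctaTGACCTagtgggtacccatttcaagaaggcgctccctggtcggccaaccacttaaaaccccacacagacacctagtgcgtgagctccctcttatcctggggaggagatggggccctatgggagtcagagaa
Hoxb8: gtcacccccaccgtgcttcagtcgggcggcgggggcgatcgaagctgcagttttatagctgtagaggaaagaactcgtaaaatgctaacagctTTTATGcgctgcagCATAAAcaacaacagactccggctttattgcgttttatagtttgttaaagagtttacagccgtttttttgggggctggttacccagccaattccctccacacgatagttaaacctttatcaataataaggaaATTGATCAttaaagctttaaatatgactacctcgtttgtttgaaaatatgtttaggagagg

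The Hoxb1 window held 1 match, to the Pbx and Hox motif, whose first base lies 162 bases before the start. The Hoxb4 window held 1 nuclear receptor core site, and the Hoxb8 window held 2 Cdx matches and 1 Pbx and Hox match. Over all 23 Hox windows, the Pbx and Hox motif was in 4 (17.4%, against 8.85% of all 32841 promoter windows), the core site in 6 (26.1%, against 16.3%) and the Cdx motif in 4 (17.4%, against 11.9%). The forkhead motif was in 0 of 23, against 3.65% of all windows. The median Hox window had 15 CpG dinucleotides (lowest 4, highest 45), against 7 over all windows. A match describes letters in these windows and is not a binding site.

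In Foxa2 null embryos no Hox probe set passed an adjusted p under 0.05. The count was 0 of 20 tested on U74Av2 and 0 of 31 tested on MOE430v2 by limma with Benjamini-Hochberg adjustment over all probe sets tested, and the lowest adjusted p was 0.454 and 0.214. Over all probe sets, 0.173% were lower and 0.104% higher at that threshold on U74Av2, and 0.244% and 0.190% on MOE430v2. At an unadjusted p under 0.05, 2 of 20 Hox probe sets were lower and 0 higher on U74Av2, where 5.01% of all tested probe sets were lower and 5.01% higher. On MOE430v2 5 of 31 were lower and 0 higher, where 6.07% of all were lower and 6.03% higher. The other 18 and 17 Hox probe sets, of 38 and 48, were below the signal filter and were not tested. With 2 pools a side, the smallest p of an exact permutation test is 0.333.

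Most Hox probe sets had a log2 ratio below 0, tested or not. On U74Av2 it was 29 of 38, where 55.1% of all probe sets were below 0, and the median ratio was -0.26, against -0.04 over all probe sets. On MOE430v2 it was 31 of 48, where 50.0% of all were below 0, and the median ratio was -0.24, against 0.00 over all. With other scalings of the arrays the count was 24 to 28 of 38 on U74Av2 and 31 or 32 of 48 on MOE430v2. The size of the medians was less stable: the U74Av2 median was -0.11 with quantile normalization or cyclic loess and -0.087 with an offset, and the MOE430v2 median was -0.14 with an offset. On MOE430v2 it was -0.12 without wild-type pool 1, -0.41 without wild-type pool 2 and -0.16, with 27 of 48 below 0, without Foxa2 null pool 2. On U74Av2 it was -0.16 without Foxa2 null pool 1. The genes taken as a floor also lay mostly below 0 on U74Av2, at 1 probe set per gene. Medians there were -0.17 for late-tissue genes (25 of 43 below 0) and -0.23 for olfactory receptors (13 of 20). The Hox median at 1 probe set per gene was -0.25 (22 of 31). On MOE430v2 these medians were 0.24 (19 of 45), 0.28 (13 of 38) and, for Hox, -0.32 (23 of 33). The part of low signal in the Hox ratios was not tested. Both Foxa2 null pools were below both wild-type pools for 12 of 38 Hox probe sets on U74Av2 (21.9% of all probe sets) and for 11 of 48 on MOE430v2 (20.8%). Both were above for 2 of 38 on U74Av2 (16.1% of all) and for 9 of 48 on MOE430v2 (20.5%). Wild-type pool 1 was above pool 2 at 21 of 38 and 28 of 48 Hox probe sets, with a median difference of 0.14 and 0.13. Over all probe sets it was above at 6269 of 12422 on U74Av2 and 22363 of 45037 on MOE430v2. The median differences over all were 0.006 and -0.004, and the Hox counts were not tested against these shares.

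The 2 arrays often disagreed on the direction of a gene. Of 29 Hox genes on both arrays, with the probe set of highest mean signal for each, 14 had a ratio below 0 on both, 2 were above 0 on both and 13 lay on opposite sides. When the 2 arrays of a pool were averaged per gene, 12 Hox genes were among 5933 genes tested. Of these, 0 passed an adjusted p under 0.05 by limma, where 1.06% of all were lower and 1.35% higher, and 11 of 12 had a ratio below 0 with a median of -0.21, against -0.01 over all genes. Among the 12, Hoxb3 alone had an unadjusted p under 0.05 in limma (7.84% of all genes were lower and 7.42% higher at that level), with a ratio of -0.78 (SE 0.34) and an adjusted p of 0.315.

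**Figure D2:**
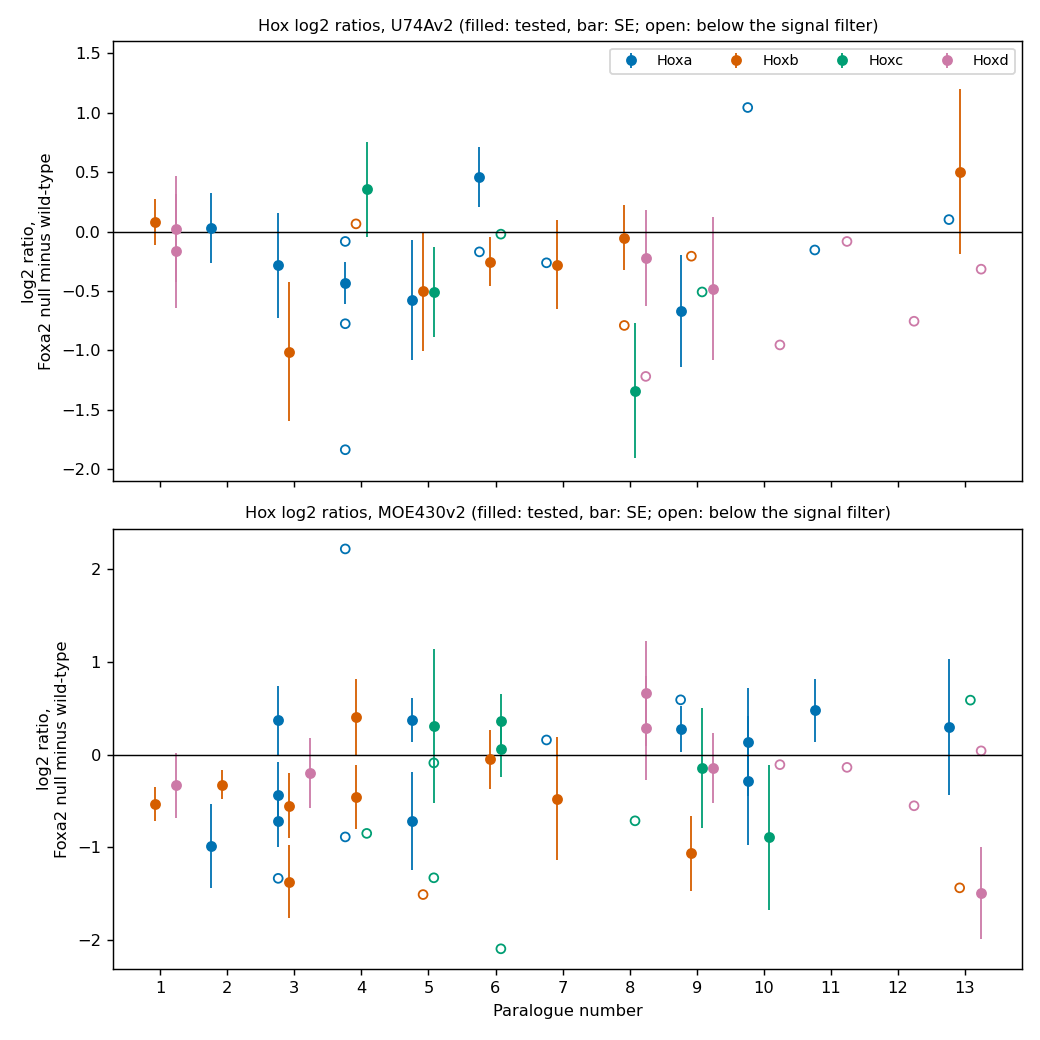
Log2 ratio of Foxa2 null minus wild-type (vertical axis) of each Hox probe set against paralogue number, coloured by cluster, on U74Av2 (top) and MOE430v2 (bottom). Filled points were tested and carry the standard error, open points were below the signal filter, and 29 of 38 and 31 of 48 points lie below 0.

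By cluster, the Hoxb genes had the lowest median on MOE430v2, at -0.54 with 10 of 11 probe sets below 0. On that array Hoxa was at 0.15 (7 of 16 below 0), Hoxc at -0.15 (7 of 11) and Hoxd at -0.14 (7 of 10). On U74Av2 the lowest median was that of Hoxc, at -0.51 (4 of 5 below 0), and Hoxa was at -0.22 (10 of 14), Hoxb at -0.23 (7 of 10) and Hoxd at -0.32 (8 of 9). The order of the clusters thus differed between the arrays, and only Hoxa had medians on opposite sides of 0. Single pools decided some of these signs: the Hoxa median on MOE430v2 was -0.26 without wild-type pool 2, the Hoxc median on MOE430v2 was 0.07 without Foxa2 null pool 2, and the Hoxb median on U74Av2 was 0.07 without Foxa2 null pool 1 and 0.05 without wild-type pool 1. By paralogue number, the MOE430v2 median was -0.50 for numbers 1 to 4 (13 of 16 below 0), -0.07 for 5 to 9 (11 of 20) and -0.12 for 10 to 13 (7 of 12). On U74Av2 it was -0.12 for numbers 1 to 4 (7 of 12), -0.38 for 5 to 9 (17 of 18) and -0.12 for 10 to 13 (5 of 8), and with quantile normalization or cyclic loess of that array the first and the last turned to values from 0.01 to 0.08. The class with the lowest median was therefore 1 to 4 on one array and 5 to 9 on the other, and the difference between classes was not tested. Without Foxa2 null pool 2 the MOE430v2 median of numbers 5 to 9 was 0.09.

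Hoxb1, which sets the identity of a hindbrain segment, had the highest wild-type percentile of the Hox probe sets on MOE430v2 (90.3). Its MOE430v2 signal was 950.0 and 1314 in the Foxa2 null pools, against 1470.3 and 1788 in the wild-type pools. The pools did not overlap, and the log2 ratio was -0.54 (SE 0.18, unadjusted p = 0.017, adjusted p = 0.290 by limma). Without single pools it ran from -0.77 to -0.30. On U74Av2, where its percentile was 75.4, Hoxb1 had 184 and 216 in the Foxa2 null pools, against 210 and 169 in the wild-type pools. There the pools overlapped and the log2 ratio was 0.08 (SE 0.19), so the arrays of the same RNA gave opposite signs for this gene. Hoxd1, the other measured gene of number 1, acts in sensory neurons of the mouse. It had 188 and 153 on MOE430v2 in the Foxa2 null pools, against 269 and 169.6 in the wild-type pools, and its pools overlapped (log2 ratio -0.33, SE 0.35). On U74Av2 it had 35.8 and 30.7 in the Foxa2 null pools, against 49.6 and 21.4 in the wild-type pools (0.03, SE 0.45), and its second U74Av2 probe set was at -0.16.

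Hoxb2 and Hoxb3, which act with Hoxb1 in the hindbrain, had ratios below 0 at every probe set. Hoxb2 was measured on MOE430v2 alone, with 1023 and 1141 in the Foxa2 null pools, against 1220.0 and 1499.7 in the wild-type pools. Its pools did not overlap, and the log2 ratio was -0.32 (SE 0.16, adjusted p = 0.463 by limma). Hoxb3 had the lowest p of any Hox probe set, at the dimmer of its 2 MOE430v2 probe sets, with 75.1 and 80.3 in the Foxa2 null pools, against 209 and 193 in the wild-type pools. The 2 groups did not overlap there, at a log2 ratio of -1.37 (SE 0.40, unadjusted p = 0.0073, adjusted p = 0.214). At the brighter probe set Hoxb3 had 225 and 134 in the Foxa2 null pools, against 289 and 225 in the wild-type pools, and the ratio was -0.55 (SE 0.35). On U74Av2 it had 7.80 and 17.5 in the Foxa2 null pools, against 28.3 and 19.6 in the wild-type pools, with a ratio of -1.01 (SE 0.59), at percentile 35.4.

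Hoxb6, a gene of the trunk and of the posterior mesoderm, had 125 and 103 on U74Av2 in the Foxa2 null pools, against 144 and 128 in the wild-type pools. These pools did not overlap (log2 ratio -0.25, SE 0.21). On MOE430v2 it had 312 and 189 in the Foxa2 null pools, against 265 and 239 in the wild-type pools, and the ratio was -0.05 (SE 0.32). The remaining Hoxb genes, 4, 5, 7, 8, 9 and 13, were at log2 ratios from -0.79 to 0.50 on U74Av2 and from -1.51 to 0.40 on MOE430v2. Among them Hoxb9 on MOE430v2 had an unadjusted p under 0.05, with 80.4 and 97.2 in the Foxa2 null pools, against 209.6 and 164 in the wild-type pools (log2 ratio -1.07, SE 0.40, adjusted p = 0.340).

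In the Hoxa cluster, the genes of highest signal on MOE430v2 were Hoxa5, needed for the lung and neck skeleton, and Hoxa9, known for blood progenitors. Hoxa5 had 715 and 675 in the Foxa2 null pools, against 429 and 671 in the wild-type pools, a ratio of 0.37 (SE 0.23) at a probe set whose name marks possible cross-hybridization. Its other MOE430v2 probe set had 160.0 and 73.1 in the Foxa2 null pools, against 265 and 119 in the wild-type pools, a ratio of -0.72 (SE 0.53), and that of U74Av2 was at -0.57 (SE 0.51). Hoxa5 thus had no settled sign. Hoxa9 had 302 and 389 on MOE430v2 in the Foxa2 null pools, against 287 and 279.97 in the wild-type pools (0.27, SE 0.25), and 0.59 at its other probe set. On U74Av2 it had 13.8 and 16.4 in the Foxa2 null pools, against 20.4 and 28.0 in the wild-type pools (-0.67, SE 0.47), so the arrays separated the pools in opposite directions.

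Hoxa4 and Hoxa6, genes of the neck and trunk, had the highest signals of the cluster on U74Av2. Hoxa4 had 239 and 249 in the Foxa2 null pools, against 371 and 294 in the wild-type pools, at percentile 85.3, and its log2 ratio was -0.44 (SE 0.18, unadjusted p = 0.038, adjusted p = 0.454 by limma). That probe set has few probes that follow the usual design rules, by its name, and the gene's 3 other U74Av2 probe sets lay at percentiles from 10.3 to 31.4, with ratios from -1.83 to -0.08. On MOE430v2 its 2 probe sets were below the filter and had ratios of -0.89 and 2.22. Hoxa6 had 73.4 and 79.1 on U74Av2 in the Foxa2 null pools, against 49.3 and 62.4 in the wild-type pools, both null pools above (0.46, SE 0.25), while its other probe set was at -0.17. Hoxa3, which acts in the neck and pharyngeal organs, had an unadjusted p under 0.05 at 1 of 4 MOE430v2 probe sets, with 166 and 178 in the Foxa2 null pools, against 307 and 259.8 in the wild-type pools (-0.71, SE 0.29, adjusted p = 0.373). The other 3 were at -1.34, -0.43 and 0.37. Hoxa2, which patterns the second pharyngeal arch, had 75.6 and 185 on MOE430v2 in the Foxa2 null pools, against 237 and 231 in the wild-type pools (-0.99, SE 0.45), and its U74Av2 ratio was 0.03. Hoxa7, Hoxa10, Hoxa11 and Hoxa13, genes of the trunk, limbs and reproductive tract, had ratios from -0.28 to 1.04, and of these Hoxa11 on MOE430v2 had both null pools above, with 191 and 216 in the Foxa2 null pools, against 169.7 and 126 in the wild-type pools (0.48, SE 0.34).

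**Figure D3:**
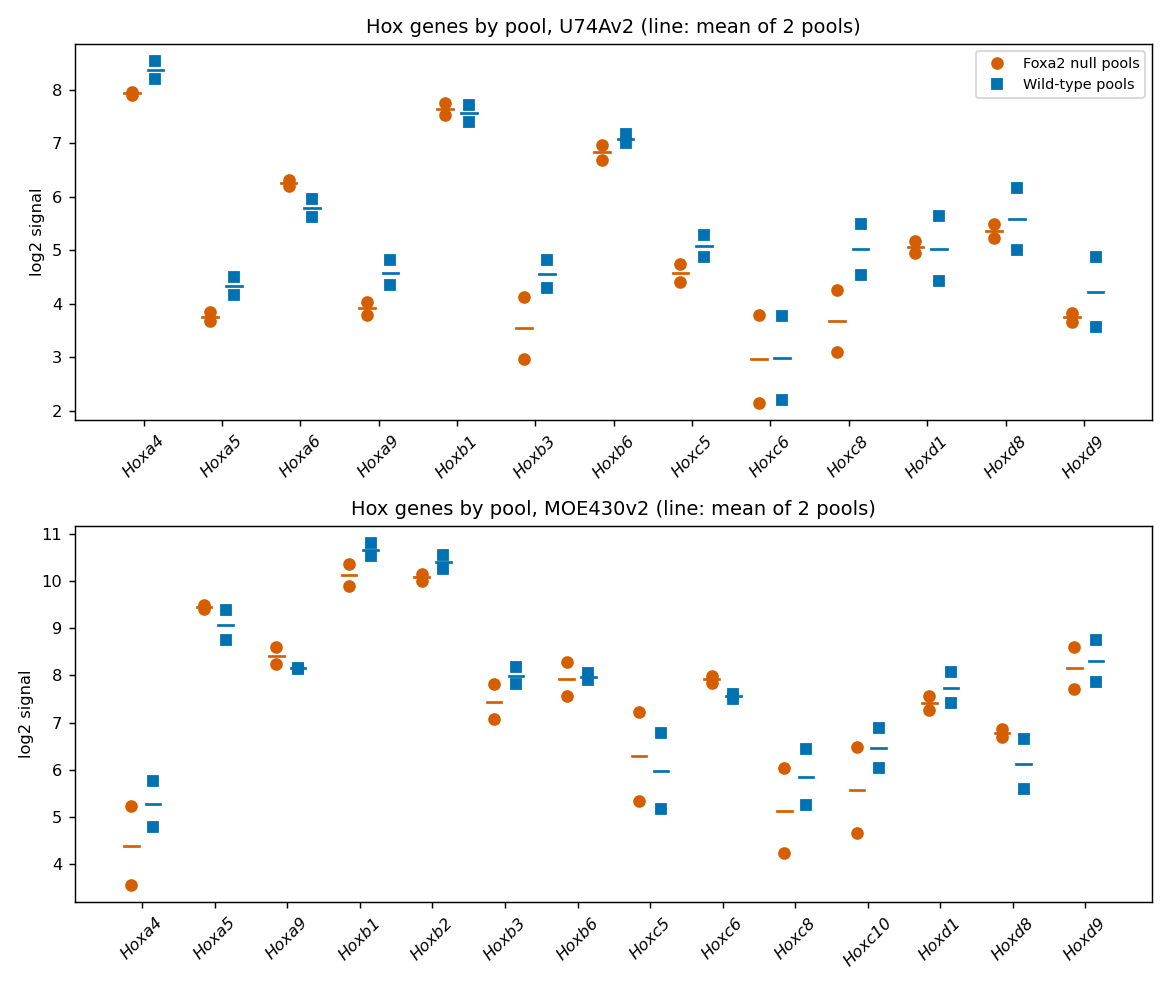
Log2 signal (vertical axis) in each pool of the 15 Hox genes named by rule, with the probe set of highest mean signal for each, on U74Av2 (top) and MOE430v2 (bottom), Foxa2 null pools as orange circles and wild-type pools as blue squares, lines at the mean of 2 pools. Hoxb1 and Hoxb2 have both null pools below both wild-type pools on MOE430v2, whereas Hoxb1 overlaps on U74Av2, and pools of 1 genotype lie far apart for Hoxc8 and Hoxc10.

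Among the tested ratios of these named genes, signs that turned when 1 pool was left out were those of Hoxb1, Hoxd1, Hoxd8 and Hoxd9 on U74Av2 and of Hoxb6, Hoxc5, Hoxc10 and Hoxd9 on MOE430v2.

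Hoxc genes had low signals and large spread. Hoxc8, a gene of the thoracic region, had 8.60 and 19.0 on U74Av2 in the Foxa2 null pools, against 23.3 and 44.9 in the wild-type pools. Its pools did not overlap (log2 ratio -1.34, SE 0.57, unadjusted p = 0.044, adjusted p = 0.471 by limma), and on MOE430v2 it was below the filter with overlapping pools. Hoxc6 was at 229 and 255 on MOE430v2 in the Foxa2 null pools, against 196 and 181 in the wild-type pools (0.36, SE 0.29), and on U74Av2 at 4.40 and 13.8 in the Foxa2 null pools, against 13.6 and 4.60 in the wild-type pools. Hoxc5 was at 21.2 and 26.6 on U74Av2 in the Foxa2 null pools, against 38.9 and 29.3 in the wild-type pools (-0.51, SE 0.38). On MOE430v2 Hoxc5 ranged more within a genotype than between them, with 40.6 and 149 in the Foxa2 null pools, against 35.7 and 111 in the wild-type pools (0.31, SE 0.83). The other MOE430v2 probe sets of Hoxc5 and Hoxc6 had ratios from -2.096 to 0.06. Hoxc10, a gene of the lumbar region and hindlimb, had 89.0 and 25.3 on MOE430v2 in the Foxa2 null pools, against 65.7 and 118 in the wild-type pools (-0.89, SE 0.78). Hoxc4, Hoxc9 and Hoxc13 had best probe sets at ratios from -0.85 to 0.59.

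In the Hoxd cluster, Hoxd9 had 388 and 209.7 on MOE430v2 in the Foxa2 null pools, against 427 and 232 in the wild-type pools. Its U74Av2 signal was 12.6 and 14.2 in the Foxa2 null pools, against 11.9 and 29.2 in the wild-type pools. Its pools overlapped on both arrays, at ratios of -0.14 (SE 0.38) and -0.48 (SE 0.60). Hoxd8 had 103 and 116 on MOE430v2 in the Foxa2 null pools, against 99.9 and 47.9 in the wild-type pools (0.66, SE 0.57), and 37.5 and 44.9 on U74Av2 in the Foxa2 null pools, against 32.2 and 71.2 in the wild-type pools (-0.22, SE 0.40). Neither gene was separated on both arrays, and the other Hoxd8 probe sets were at -1.22 on U74Av2 and 0.29 on MOE430v2. Hoxd13, a gene of the digits and the genital tubercle, had an unadjusted p under 0.05 at 1 MOE430v2 probe set, with 50.7 and 59.5 in the Foxa2 null pools, against 138 and 175 in the wild-type pools (-1.50, SE 0.50, adjusted p = 0.269 by limma). Its other probe sets, 1 on each array, were at percentiles 11.3 and 8.61, below the filter, with overlapping pools and ratios of 0.04 and -0.32. Hoxd3, Hoxd10, Hoxd11 and Hoxd12 had ratios from -0.95 to -0.08.

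The genes known to act on Hox expression were described beside the members. Cdx1, a homeodomain activator of Hox genes, fell by 2.08 on the log2 scale on MOE430v2 (SE 0.26, adjusted p = 0.0151 by limma), with 558 and 316 in the Foxa2 null pools, against 1966 and 1606 in the wild-type pools. On U74Av2 it had 164 and 82.8 in the Foxa2 null pools, against 376 and 294 in the wild-type pools (-1.51, adjusted p = 0.130). Its relatives were at -1.28 for Cdx4 (adjusted p = 0.248) and -0.46 for Cdx2 (adjusted p = 0.523) on MOE430v2. The Cdx list thus had 1 of 3 members called lower there and 0 of 2 tested on U74Av2. Of all tested probe sets, 0.244% were lower on MOE430v2 and 0.173% on U74Av2. The calls of Cdx1, and of Aldh1a2, Dll1, Hes7, Hesx1 and Ash2l were lost without wild-type pool 1, without wild-type pool 2 and when limma was fitted without an intensity trend, with adjusted p up to 0.464. That of Ash2l was also lost without Foxa2 null pool 1, and that of Hesx1 with quantile normalization or median centring.

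Aldh1a2, the main enzyme of retinoic acid synthesis in the embryo, fell by 1.22 on MOE430v2 (SE 0.17, adjusted p = 0.0231 by limma), with 1445 and 1019 in the Foxa2 null pools, against 2799 and 2871 in the wild-type pools. On U74Av2 the ratio was -1.07 (adjusted p = 0.234). Cyp26a1, which breaks retinoic acid down, was at -0.39 on MOE430v2 (adjusted p = 0.234) and -0.44 on U74Av2 (adjusted p = 0.471). Of the retinoic acid list, 1 of 13 tested genes was called lower on MOE430v2 and 0 of 10 on U74Av2. Of all tested probe sets, 0.244% and 0.173% were lower, and the list medians were -0.36 and -0.19. Wnt3a and Wnt8a, ligands of the primitive streak, were at -0.48 and -0.79 on MOE430v2 and at -1.04 and -0.79 on U74Av2, with adjusted p from 0.147 to 0.349. None of the 13 and 9 posterior streak genes tested passed on MOE430v2 and U74Av2, with medians of -0.59 and -0.45.

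Of the TALE proteins, which bind DNA together with Hox proteins, 0 of 7 passed on MOE430v2 and 0 of 6 on U74Av2, with medians of -0.32 and -0.13. Ratios were below 0 for 7 of 8 measured on MOE430v2 and 5 of 6 on U74Av2. Meis1, of this list, had both Foxa2 null pools below both wild-type pools on each array. It was at -0.81 on MOE430v2 (adjusted p = 0.155 by limma) and -1.15 on U74Av2 (adjusted p = 0.459). The Polycomb list had a median of -0.01 with 0 of 17 called on MOE430v2 and 0.05 with 0 of 14 on U74Av2. A further list held Trithorax proteins, which keep Hox genes active, and other genes listed as Hox activators. In it 1 of 10 was called higher on MOE430v2, where 0.190% of all tested probe sets were higher. The gene called was Ash2l, a subunit of histone methyltransferase complexes, at 0.71 (adjusted p = 0.0273 by limma). On U74Av2 Ash2l was at -0.02 and 0 of 7 passed. Gbx2, of the same list, had both Foxa2 null pools below both wild-type pools on each array. It was at -0.84 on MOE430v2 (adjusted p = 0.0617 by limma) and -0.97 on U74Av2 (adjusted p = 0.101). Of the list, 4 of 10 were below 0 on MOE430v2 and 5 of 7 on U74Av2, with medians of 0.12 and -0.04. Genes that flank the Hox clusters had medians of -0.08 on MOE430v2 (0 of 25 called) and -0.05 on U74Av2 (0 of 14).

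**Figure D4:**
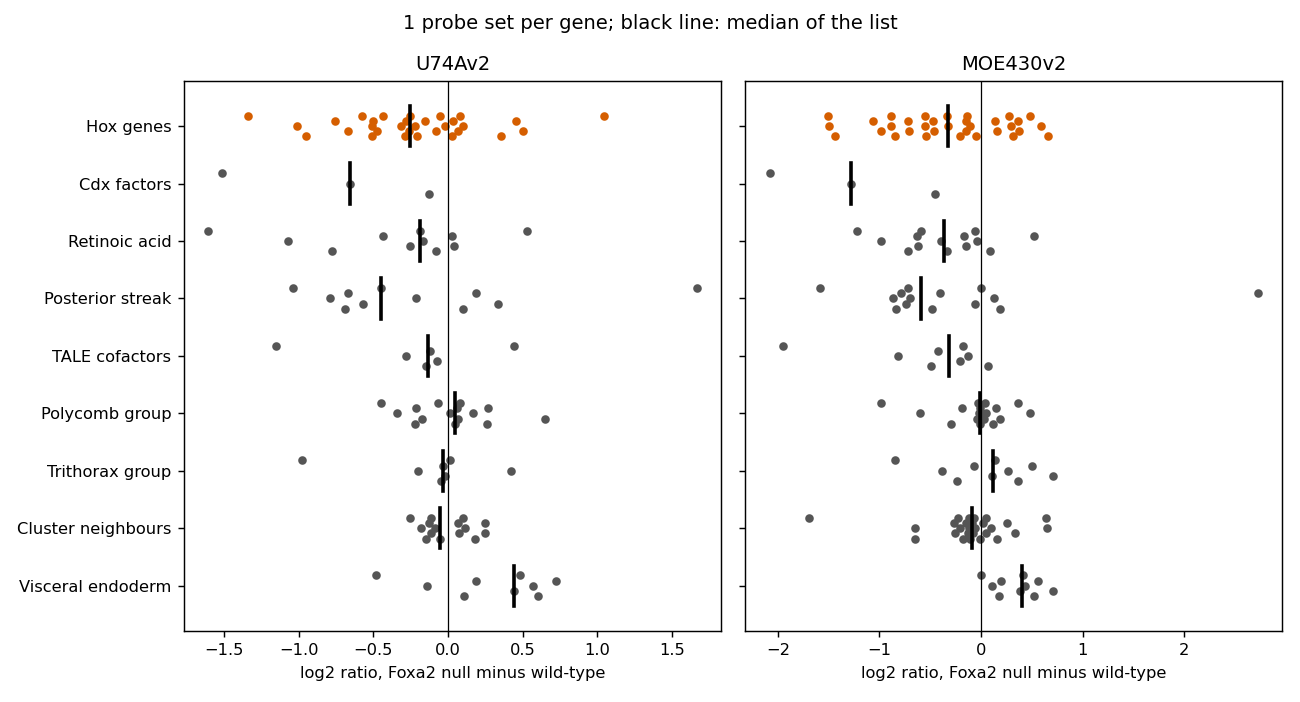
Log2 ratio of Foxa2 null minus wild-type (horizontal axis) of the Hox genes (orange) and of 8 gene lists (grey), 1 probe set per gene, on U74Av2 (left) and MOE430v2 (right), with the median of each list as a black line. The Hox medians of -0.25 and -0.32 lie below 0 on both arrays, as do those of the Cdx factors at -0.66 and -1.28, while the visceral endoderm markers are at 0.44 and 0.40.

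Markers of other cells were described beside the Hox genes. In these whole pools, fewer cells of a type and less RNA per cell cannot be told apart. The summed signal of the 10 visceral endoderm markers on MOE430v2 was 83417 and 66217 in the Foxa2 null pools, against 60618 and 62708 in the wild-type pools. None of the 10 passed the threshold (limma). That of the 10 presomitic and somitic markers was 6557 and 9343 in the Foxa2 null pools, against 11140 and 12009 in the wild-type pools. Of these, 2 of 10 were called lower and 0 higher, against 0.244% and 0.190% of all tested probe sets. The median was -0.70. Dll1, a Notch ligand, fell by 1.01 (adjusted p = 0.0174 by limma) and Hes7, a segmentation clock repressor, fell by 1.55 (adjusted p = 0.0320). Mesp1 and Mesp2, transcription factors of early mesoderm, had ratios above 0 on both arrays, 0.76 and 0.80 on MOE430v2 and 0.86 and 0.58 on U74Av2, with adjusted p from 0.382 to 0.678. On U74Av2 the 6 members measured had a median of -0.04 with 0 called, and their summed signals overlapped, at 676 and 958 in the Foxa2 null pools, against 872 and 982 in wild-type. Among 5 tested genes of the anterior neural plate, a tissue that expresses no Hox gene, Hesx1 fell by 1.66 on MOE430v2 (adjusted p = 0.0457), and the other 4 had ratios from -0.71 to 0.42 and did not pass. The median of all 8 measured there was -0.11, and Rax, below the filter, was at 1.35 with both Foxa2 null pools above. On U74Av2 the median was -0.46 with 0 of 5 called. The lists of trophoblast and of allantois had medians of 0.62 and 0.10 on MOE430v2 and of 0.77 and 0.09 on U74Av2, with 0 called on each array. The part of these cell types in the Hox ratios was not tested.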

How the data were processed

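RNA of 4 embryo pools was measured on 8 Affymetrix arrays, 4 U74Av2 and 4 MOE430v2. The authors deposited a linear intensity for each probe set, the MAS5 signal, scaled to a common target on all arrays of a type. The mean after trimming 2% at each end was 150 on the U74Av2 arrays and 500 on the MOE430v2 arrays. The methods give another target for U74Av2, and a loess step for MOE430v2 that the deposited intensities do not show. Median signals ran from 48.15 to 52.8 and from 155 to 165. MAS5 is named in the submitters' processing notes without a version. No detection call was used. The number of arrays limits the precision.

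Signals were taken to log2, U74Av2 as scaled and MOE430v2 after cyclic loess between its 4 arrays, and MOE430v2 signals are given after loess (R 4.3.3, limma 3.58.1, with tables read by the package data.table, version 1.17.8). Control probe sets and the dimmest 30% by mean log2 signal were left out of tests, which left 8695 and 31526. Foxa2 null was compared with wild-type by limma (two-sided, intensity trend, no block), with Benjamini-Hochberg adjustment over all probe sets tested. Each SE and p-value combines the spread between 2 pools per genotype with a variance that limma shares over probe sets of like signal. They are therefore not the pool spread of that probe set alone. For genes on both arrays, log2 signals of the brightest probe set were centred per array type and averaged per pool. The fit was run on data simulated from limma's own variance model. That run checks the code and cannot show that the model holds for these pools. Gene names came from the platform annotation. A probe set whose name holds s, x, f or g can match several transcripts, so paralogues may share it. The letters i and r mark probe sets that do not meet the usual design rules. All of these letters were counted as ambiguous names.

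The members, gene lists and naming rule were chosen with earlier results of these data known. Named were Hox genes of paralogue number 1, the 2 per cluster and array with the highest wild-type signal, those on opposite sides of 0 on the 2 arrays with an unadjusted p under 0.05 on at least 1, and those past the threshold or with an unadjusted p under 0.01. Of listed genes, those past the threshold (at most 4 per list) and a set of known Hox regulators were named, and some items are not reported here. Hoxa2, Hoxa3, Hoxa11, Hoxb9 and Hoxd13 fall outside the rule and were chosen after their values were seen. The same holds for Gbx2, Meis1, Mesp1, Mesp2, Rax, Evx2 and Hoxb5os among the other genes. Alternatives changed the normalization, an offset before log2 (16 on U74Av2, 50 on MOE430v2), the filter, the probe sets, the variance trend and the block, or left out single pools.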

Additional observations from a re-analysis of the deposited data

How the results depend on the processing

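No Hox probe set or gene passed the threshold under any alternative, with 1 exception: with the replicate number as a block (replicate block), Hoxb1 on MOE430v2 passed (log2 ratio -0.54, adjusted p = 0.0151 by limma), which made 1 Hox call there, beside 1643 calls over all probe sets with the block and 137 without. Pools of the same number share only that number: the correlation of their deviations from the genotype means was 0.08 on U74Av2 and 0.04 on MOE430v2, and 2 pairs cannot settle a pairing. Limma without the intensity trend called 0 probe sets in all on either array.

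Medians moved by more than the spread between pools as follows, and the causes were not tested. With quantile normalization, the U74Av2 medians were -0.039 for Hoxa, 0.021 for numbers 1 to 4 and 0.047 for 10 to 13, and with cyclic loess -0.027, 0.015 and 0.079. With an offset they were -0.071 for Hoxa, -0.057 for 1 to 4 and -0.19 for 5 to 9, and the Hoxd1 ratio on U74Av2 turned to -0.010. Leaving out the lowest 50% of probe sets gave 0.011 for Hoxa and -0.15 for 5 to 9 on U74Av2, and 0.21 for Hoxc and 0.48 for 10 to 13 on MOE430v2. Leaving out the lowest 30%, chosen after the data were seen, gave -0.36 for Hoxa and 0.50 for 10 to 13 on U74Av2. Without ambiguous probe set names Hoxa was -0.15 and 1 to 4 were 0.029 on U74Av2. With the mean over a gene's probe sets, Hoxd1 on U74Av2 was -0.069 and Hoxa5 on MOE430v2 was -0.17.

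Over the fits without single pools, U74Av2 medians ran from -0.33 to -0.10 for Hoxa, from -0.40 to 0.066 for Hoxb, from -0.80 to -0.14 for Hoxd, from -0.20 to -0.10 for 1 to 4 and from -0.61 to -0.23 for 5 to 9. On MOE430v2 they ran from -0.26 to 0.20 for Hoxa, from -0.59 to 0.075 for Hoxc, from -0.37 to -0.047 for Hoxd, from -0.70 to -0.25 for 1 to 4 and from -0.39 to 0.086 for 5 to 9. Single U74Av2 ratios ran from -0.077 to 0.23 for Hoxb1, from -0.58 to 0.63 for Hoxd1, from -0.80 to 0.35 for Hoxd8 and from -1.13 to 0.17 for Hoxd9. On MOE430v2 they ran from -0.41 to 0.31 for Hoxb6, from -0.63 to 1.25 for Hoxc5, from -1.80 to 0.017 for Hoxc10 and from -0.59 to 0.30 for Hoxd9. The median wild-type percentile on MOE430v2 was 42.6 when wild-type pool 1 was left out and 41.4 when pool 2 was, settings chosen after the data were seen. Of 27 ratios of named Hox genes, 16 kept their sign in every alternative run. The 18 and 17 Hox probe sets below the filter on U74Av2 and MOE430v2 had no test.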

Other observations

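Probe sets that name 2 Hox genes together were kept out of the members. A MOE430v2 probe set for Hoxd4 and Hoxd3 had a signal of 47.0 and 54.3 in the Foxa2 null pools, against 186 and 103 in the wild-type pools, a log2 ratio of -1.45 (SE 0.56, adjusted p = 0.349 by limma) with pools that did not overlap. A second one for the same genes was below the filter, at 0.70. On U74Av2 their probe sets were at -0.23 and, below the filter, -1.16, and the pools overlapped at both. The probe sets shared by Hoxb8 and Hoxb7 had ratios of 0.61 on MOE430v2 and 0.29 on U74Av2, and their pools overlapped on both arrays. Evx2, a homeobox gene next to Hoxd13, had 257 and 219 on MOE430v2 in the Foxa2 null pools, against 154 and 127 in the wild-type pools (0.76, SE 0.32, adjusted p = 0.393), while on U74Av2 it was below the filter at -0.03. The antisense transcript Hoxb5os had 127 and 80.3 on MOE430v2 in the Foxa2 null pools, against 134 and 14.02 in the wild-type pools, and the pools overlapped.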
